A study of Mus musculus with 6 samples.

Results

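IGHV8 is a family of heavy chain variable (V) gene segments of the mouse. An IgH clonotype, a set of reads with 1 CDR3 nucleotide sequence and 1 combination of gene segments, was assigned to IGHV8 when its best V hit, without the allele suffix, belonged to the family. This gave 273 of 7794 IgH clonotypes (iB-μMT mouse) and 285 of 6781 (B6 mouse), or 558 of 14575 in all. They carried 43755 of 909806 reads and 67250 of 1383617 reads, respectively. BCR libraries of the heavy chain were made from 100000 sorted splenic naïve FO B cells (follicular B cells that had not yet met antigen) of 1 mouse per group. The iB-μMT mouse was a μMT recipient, which lacks B cells of its own because the membrane form of IgM is disrupted. It was 8 to 10 weeks old at transplantation and was sublethally irradiated before it received hematopoietic progenitors induced in culture from the embryonic stem cell line iR9X2-ESC. This C57BL/6 line carries GFP in the Hipp11 locus and a doxycycline-inducible Runx1, Hoxa9 and Lhx2 cassette in Rosa26, so all transplanted cells came from 1 engineered line. The recipient drank doxycycline, and its B cells (iB cells) were sorted at week 4. The control was an untransplanted C57BL/6 (B6) mouse, whose age was not given in the sources used here. With 1 library per group, every test below compares 2 libraries and not the conditions, and the intervals cover counting error only, because no molecular identifiers are described for the reads.

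During B cell development in the bone marrow, a D segment is first joined to a J segment, and a V segment is then joined to the DJ. Nucleotides are removed from the segment ends and others are added between them by the enzyme TdT, and the joint encodes CDR3, the most variable loop of the heavy chain. V genes far from the D segments reach them through contraction of the locus, whereas the nearest V genes depend on it less. IGHV8 genes are scattered through the distal part of the locus among genes of IGHV1, the largest family (known in older nomenclature as J558). The RefSeq gene table of assembly GRCm38.p6 holds 183 IGHV genes, of which 16 are IGHV8 genes. Of these 16, 12 had an IGHV1 gene as the neighbour on both sides, 10 are V segments and 6 are pseudogenes. Clonotypes were found for 6 of the V segments and for 0 of the pseudogenes. In order from the D segments, IGHV8-2 (chr12:114462290-114462589) is the 73rd IGHV gene, IGHV8-5 (chr12:115067560-115067860) the 132nd, IGHV8-6 (chr12:115165777-115166077) the 137th, IGHV8-8 (chr12:115294066-115294362) the 143rd, IGHV8-11 (chr12:115567149-115567449) the 157th and IGHV8-12 (chr12:115647945-115648245) the 162nd.

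The start of CDR3 is written by the V gene, and the genes listed below differed there where the V end was complete. The following sequences are the commonest starts among clonotypes of both libraries from which no V nucleotide was removed, read 5′ to 3′ from the first base of CDR3. Capitals mark positions that differ from IGHV8-8.
IGHV8-8: tgtgctcgaatag
IGHV8-12: tgtgctcgaaGag
IGHV8-5: tgtgctcAaatag
IGHV8-2: GgtgctTgGaGagAG
These starts were found in 113 of 115 clonotypes of IGHV8-8, 85 of 91 of IGHV8-12, 1 of 2 of IGHV8-5 and 8 of 9 of IGHV8-2. The start given for IGHV8-5 thus rests on 1 clonotype. IGHV8-8 and IGHV8-12 differed at 1 position in the part of CDR3 they encode, whereas IGHV8-2 differed from IGHV8-8 at 6 positions. The position that separates IGHV8-8 from IGHV8-12 is lost where more than 2 V nucleotides are removed. All IGHV8 clonotypes except those of IGHV8-2 began with tgt, the codon of the conserved cysteine that opens CDR3. All 8 IGHV8-2 clonotypes of each library began with ggt, a glycine codon, in its place. Among the other IgH clonotypes, 97.9% (iB-μMT) and 97.6% (B6) began with tgt, and ggt was found in 2 and 0 of them.

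The clonotypes with the most reads show how the joints were built. In these sequences, capitals mark nucleotides outside the reported segment ends, between V and D or between D and J. Where no D was found, as in the first sequence, the bases between V and J could not be divided in this way and are left in lower case. The most abundant IGHV8 clonotypes of the iB-μMT mouse had 523, 500 and 453 reads.
IGHV8-8, no D hit, IGHJ1: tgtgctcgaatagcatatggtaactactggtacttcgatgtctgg
IGHV8-8, IGHD2-4, IGHJ2: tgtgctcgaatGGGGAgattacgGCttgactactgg
IGHV8-12, IGHD1-1, IGHJ2: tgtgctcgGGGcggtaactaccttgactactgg
The first of them had a complete V end. The second had lost 2 nucleotides of its V end and gained 7, and the third had lost 5 and gained 3. Those of the B6 mouse had 1063, 837 and 674 reads.
IGHV8-8, IGHD1-1, IGHJ1: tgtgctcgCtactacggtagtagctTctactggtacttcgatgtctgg
IGHV8-8, IGHD3-2, IGHJ4: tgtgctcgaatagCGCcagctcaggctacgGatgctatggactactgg
IGHV8-8, IGHD2-4, IGHJ3: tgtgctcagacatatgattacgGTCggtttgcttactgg
They held 2, 4 and 3 inserted nucleotides. The third had a best V score (MiXCR's alignment score) of 1114.8, against a median of 1837.7 for the IGHV8-8 clonotypes of this library, and its CDR3 start differed from that of IGHV8-8 given above.

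IGHV8-8 and IGHV8-12 made up nearly the whole family in both mice, and the share of neither could be told apart between the libraries. IGHV8-8 was the best hit of 139 iB-μMT clonotypes (1.78%, 1.51% to 2.10% by Wilson's 95% interval) and of 141 B6 clonotypes (2.08%, 1.77% to 2.45%). The ratio of these shares, iB-μMT over B6, was 0.858 (95% interval 0.680 to 1.08; Fisher's exact test, adjusted p = 0.297). IGHV8-12 was the best hit of 123 clonotypes (1.58%, 1.32% to 1.88%) and 117 clonotypes (1.73%, 1.44% to 2.06%). Its ratio was 0.915 (0.712 to 1.18, exact adjusted p = 0.649). The 2 genes together gave 262 of the 273 iB-μMT members (96.0%, 92.9% to 97.7%) and 258 of the 285 B6 members (90.5%, 86.6% to 93.4%). Within the family, IGHV8-8 held 50.9% and 49.5% and IGHV8-12 45.1% and 41.1% of the clonotypes in the iB-μMT and B6 mouse. Their read shares were also close, at 2.63% and 2.57% of all IgH reads for IGHV8-8 and 2.04% and 1.83% for IGHV8-12. The test covered the 77 IGHV genes that reached 20 clonotypes over both libraries. Of these, 48 differed at an adjusted p under 0.05 (62.3%), whereas 0 of the 2 IGHV8 genes tested did, and neither had an unadjusted p under 0.05. A ratio of more than 2-fold in either direction was found for 30 of the 77 genes (39%) and for neither of them. The lower bounds of 0.680 and 0.712 mark the largest decrease that these counts still allow.

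The 4 rarer genes had too few clonotypes for that test. IGHV8-2, the member nearest to the D segments, had 8 clonotypes in each library (ratio 0.870, 0.327 to 2.32). Their reads ranged from 19 to 229 (iB-μMT) and from 1 to 472 (B6). The B6 clonotypes with 139 and 4 reads shared their D gene (IGHD2-7), J gene (IGHJ1), CDR3 length and number of inserted and removed nucleotides. IGHV8-5 had 3 clonotypes in the iB-μMT mouse, with 246, 119 and 71 reads, and 16 in the B6 mouse, with between 1 and 445 reads. Its ratio was 0.163 (0.0476 to 0.560). Of its B6 clonotypes, those with 149 and 6 reads had no D hit and shared their J gene (IGHJ3), CDR3 length and number of removed V nucleotides. Where every IGHV gene was tested regardless of its count, IGHV8-5 was the member called, with an exact adjusted p of 0.00277 (51 of 105 genes called, 48.6%). IGHV8-6 was represented by 2 clonotypes of the B6 mouse with 229 and 179 reads, and IGHV8-11 by 1 clonotype of the B6 mouse with 1 read. Neither gene was found in the iB-μMT mouse, where 0 of 7794 clonotypes allows a share of up to 0.0385% (3 clonotypes of the total; the upper bound of the Wilson interval is 0.0493%), so no difference was detectable for either. The plot of the members shows the separation of the 2 frequent genes from the 4 rare ones.

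**Figure D1:**
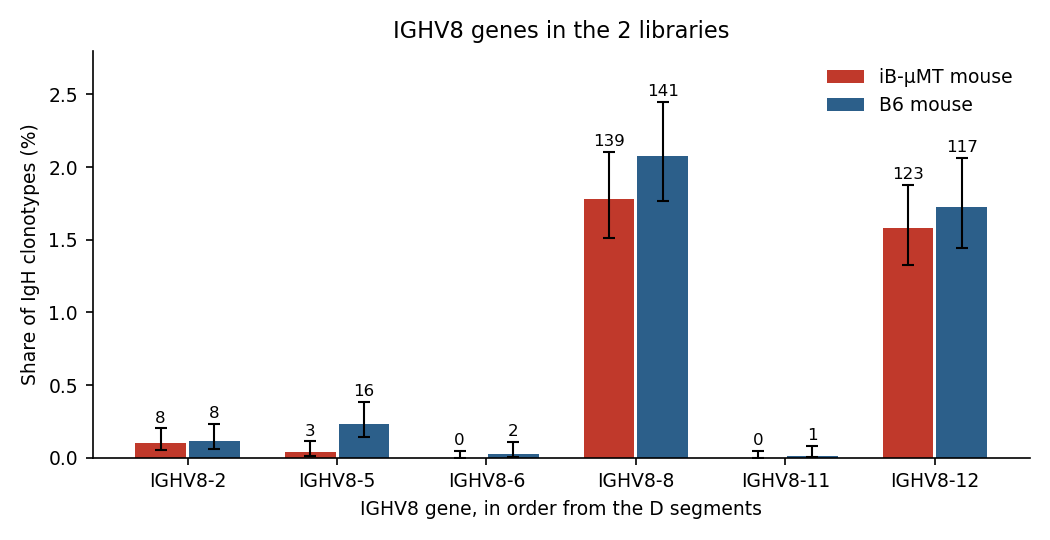
Share of IgH clonotypes (%, vertical axis) of the 6 IGHV8 genes, ordered from the D segments, in the iB-μMT mouse (red) and the B6 mouse (blue), 1 library each. Bars start at 0, lines are 95% Wilson intervals and the number above each bar is the number of clonotypes: IGHV8-8 (139 and 141) and IGHV8-12 (123 and 117) stand far above the others, and IGHV8-5 (3 and 16) is the member whose intervals do not overlap.

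Assignment of the members to single genes was mostly clear. No member had tied best V hits, and no member had a hit outside the family. IGHV8-8 clonotypes most often had IGHV8-11 as second hit (91 of 139 and 86 of 141), at a median score gap of 211 and 214. A score under 1200 was found for 10 members in each library (3.66% and 3.51%), and for 5.52% and 3.68% of the other IgH clonotypes. Of these members, 4 in each library had 20 or more reads, with scores between 930.5 and 1114.8 and a gap to the next IGHV8 gene of only 0.1 to 29. Their CDR3 began in ways that the genes above did not, with capitals again marking differences from IGHV8-8.
3 iB-μMT clonotypes: tgtgctcAGaG
2 B6 clonotypes: tgtgctcAGaC
1 iB-μMT and 2 B6 clonotypes: tgtgctcACaG
No member with a score of 1200 or more shared the first 9 nucleotides of any of these starts. These 8 clonotypes were called IGHV8-8 (4), IGHV8-12 (1) and IGHV8-5 (3), so their place within the family is uncertain. The 3 called IGHV8-5 are those with the last start, and each had 5 V nucleotides removed by the reported ends. In these 3, the bases up to the first capital match the IGHV8-5 start above. The bases after it lie beyond the reported V end. Without the low scores, IGHV8-5 had 2 iB-μMT and 14 B6 clonotypes.

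The family's share of the heavy chain repertoire was 3.50% (3.12% to 3.93%) for iB cells, against 4.20% (3.75% to 4.71%) in the B6 mouse. The ratio of 0.833 (0.708 to 0.981; log2 ratio -0.26) did not pass the test over 15 IGHV families, of which 5 were called (33.3%; exact p = 0.0304, exact adjusted p = 0.0652). Merging near-identical clonotypes brought it past the threshold (exact adjusted p = 0.0382), whereas it stayed short of it without IGHV8-5 (exact adjusted p = 0.237). As shares of reads, the family held 4.81% and 4.86% (ratio 0.989). IGHV8 ranked 7th among the families by clonotypes in the iB-μMT mouse, but 4th in the B6 mouse. IGHV1, the family that surrounds it, held 2322 iB-μMT clonotypes (29.8%) and 4023 B6 clonotypes (59.3%), a ratio of 0.502 (0.483 to 0.522, exact adjusted p = 5.95e-284). The number of IGHV8 clonotypes per IGHV1 clonotype was therefore 1.66-fold higher in the iB-μMT mouse (1.40 to 1.97, exact adjusted p = 6.50e-08 over 14 family pairs, 9 of which were called, 64.3%). This comparison does not depend on the rest of the repertoire, since it uses the clonotypes of the 2 families alone.

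Against 8 other families, IGHV8 clonotypes were fewer in relation in the iB-μMT mouse than in the B6 mouse. Per IGHV2 clonotype, the number of IGHV8 clonotypes was 0.234 times (0.184 to 0.297, exact adjusted p = 5.82e-33) and per IGHV5 clonotype 0.337 times (0.281 to 0.405, exact adjusted p = 6.51e-30) its value in the B6 mouse. Both families lie mostly near the D segments. IGHV3 (0.592 times; exact adjusted p = 1.43e-05) and IGHV9 (0.599 times; exact adjusted p = 5.02e-06) also differed from IGHV8, as did IGHV13, IGHV14, IGHV7 and IGHV4 (exact adjusted p between 0.0154 and 0.0456). IGHV6 was the nearest to IGHV8 in ratio, at 0.961 (0.867 times; 0.665 to 1.13, exact adjusted p = 0.344). IGHV10, IGHV11, IGHV12 and IGHV15 were not distinguished from IGHV8 either, with exact adjusted p between 0.0611 and 0.748. Without IGHV8-5, 6 of the 14 pairs were called.

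**Figure D2:**
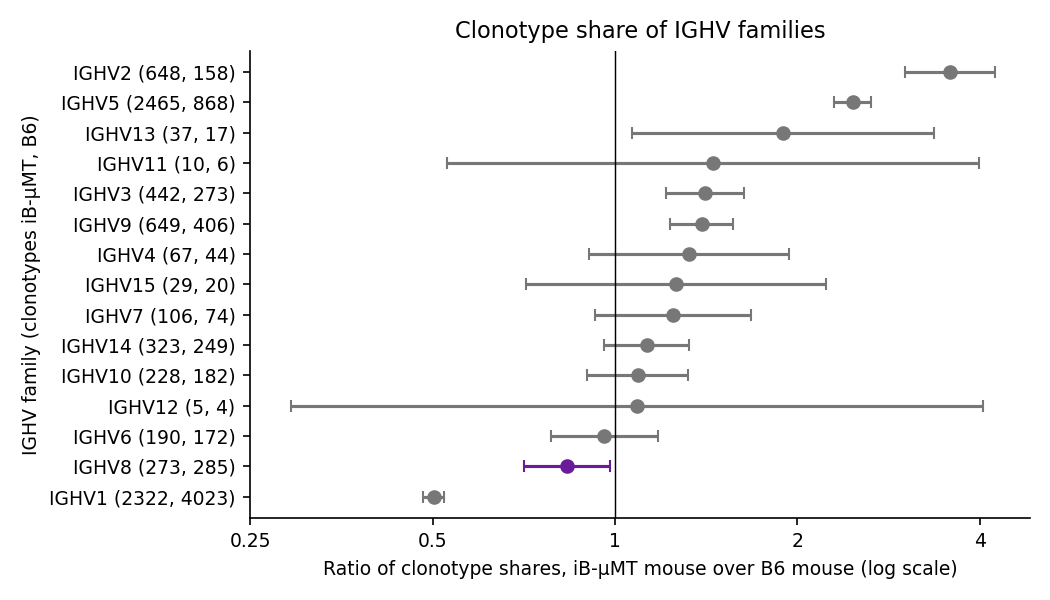
Ratio of clonotype shares, iB-μMT mouse over B6 mouse (horizontal axis, log scale), of the 15 IGHV families, with the numbers of clonotypes in the 2 libraries beside each name. Points are ratios and lines 95% intervals from counting error: IGHV8 (purple) at 0.833 lies between IGHV1 at 0.502 and IGHV6 at 0.961.

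The nearest IGHV1 genes with a clonotype on either side of each IGHV8 gene were compared in the same way, which passes over adjacent IGHV1 genes without one. Between the outermost IGHV8 genes with a clonotype, 29 IGHV1 genes could be tested, and 26 were lower and 3 higher in the iB-μMT mouse. Of these, 20 were called lower and 0 higher, where the background over all genes was 36.4% lower and 26% higher. The IGHV1 family as a whole had 28 of its 40 tested genes called lower and 1 higher. These 28 were all the genes called lower in the comparison, so the result was not particular to the genes around IGHV8. The median log2 ratio of the 29 genes was -0.94. The median was -0.18 for the 2 IGHV8 genes tested and -0.12 for all 77 genes tested. On either side of IGHV8-12, IGHV1-69 had 88 and 156 clonotypes (ratio 0.491, 0.379 to 0.636, exact adjusted p = 1.68e-07) and IGHV1-71 had 21 and 50 (ratio 0.365; exact adjusted p = 0.000172). Beyond IGHV8-8, IGHV1-58 had 35 and 53 clonotypes (ratio 0.575, 0.375 to 0.879, exact adjusted p = 0.0169), and on its D side IGHV1-56 had 1 and 5, too few to test.

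Next to IGHV8-5, IGHV1-50 had 87 and 185 clonotypes (ratio 0.409; exact adjusted p = 5.46e-12) and IGHV1-49 had 13 and 16 (ratio 0.707; exact adjusted p = 0.485). IGHV1-53 and IGHV1-54, around IGHV8-6, had ratios of 0.575 and 0.435 (exact adjusted p = 0.000182 and 0.00013). IGHV1-64, on the D side of IGHV8-11, had a ratio of 0.573 (exact adjusted p = 3.32e-08), whereas IGHV1-66 beyond it, with 30 and 31 clonotypes, had a ratio of 0.842 (exact adjusted p = 0.649). IGHV1-4, the first IGHV1 gene with a clonotype beyond IGHV8-2, had 30 and 19 clonotypes (ratio 1.37, 0.774 to 2.44, exact adjusted p = 0.443). The frequent members thus had ratios of 0.858 and 0.915, and their 3 neighbours that could be tested had ratios of 0.365 to 0.575. Differences between a member and a single neighbour were not tested. The interval of IGHV1-58 (0.375 to 0.879) overlapped that of IGHV8-8 (0.680 to 1.08). Those of IGHV1-69 (0.379 to 0.636) and IGHV1-71 (0.220 to 0.608) did not overlap that of IGHV8-12 (0.712 to 1.18). IGHV1-49, IGHV1-66 and IGHV1-4, next to rarer members, were not called. The 3 genes outside the family with the log2 ratio nearest to that of IGHV8, over these 2 libraries, were all IGHV1 genes: IGHV1-12 (0.834), IGHV1-66 (0.842) and IGHV1-47 (0.816). They had few clonotypes (23 and 24, 30 and 31, 15 and 16), and IGHV1 supplied 40 of the 77 genes tested.

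**Figure D3:**
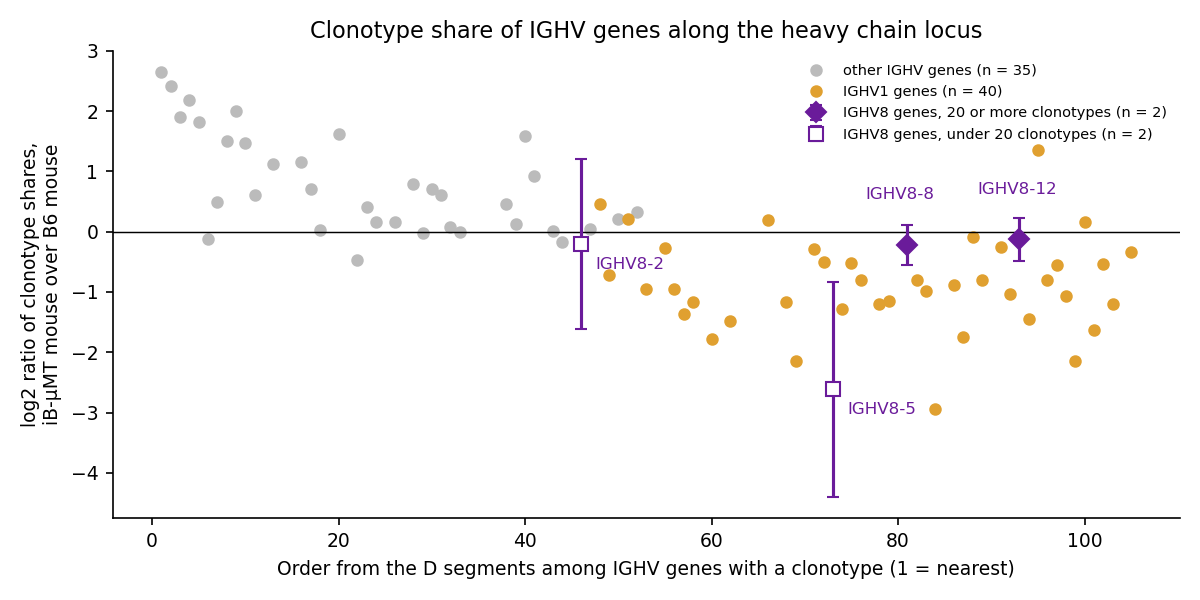
log2 ratio of clonotype shares, iB-μMT mouse over B6 mouse (vertical axis), against the order of the IGHV genes with a clonotype from the D segments (horizontal axis, 1 is nearest). Grey points are other families, orange points IGHV1 genes and purple points IGHV8 genes with 95% intervals; open squares had under 20 clonotypes and IGHV8-6 and IGHV8-11, with 0 clonotypes in the iB-μMT mouse, are not drawn. IGHV8-8 and IGHV8-12 lie close to 0 among IGHV1 genes with a median of -0.91.

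IGHV8 joints of the iB-μMT mouse held fewer inserted nucleotides than those of the B6 mouse. Over clonotypes with a D hit (251 and 269), the mean was 3.82 (SD 2.93) in iB cells, against 5.53 (SD 3.15) in the B6 mouse. The difference was -1.71 nucleotides (SE 0.27 over clonotypes; 95% interval -2.24 to -1.19). The other IgH clonotypes had means of 4.34 and 6.40 (difference -2.06, -2.19 to -1.94). The interval of the gap between the 2 differences, -0.19 to 0.89 nucleotides, included 0. Within each library, IGHV8 joints held fewer inserted nucleotides than the others, with differences of -0.52 (-0.89 to -0.15) for iB cells and -0.87 (-1.26 to -0.48) for B6.

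The difference between the mice lay mostly on the D to J side of the IGHV8 joints. There the mean was 1.15 against 2.46 in the B6 mouse (difference -1.31, -1.66 to -0.96), and 52.2% and 26.8% of the joints had no nucleotide added there. The other IgH clonotypes were close to this, with a D to J difference of -1.15 (-1.23 to -1.07) and 54.1% and 28.9% of joints without an addition. On the V to D side, the IGHV8 means were 2.67 and 3.07 (difference -0.40, -0.81 to 0.0060), and 22.3% and 15.6% had none. In the other IgH clonotypes the V to D difference was -0.91 (-1.01 to -0.81), so that the IGHV8 difference lay 0.51 above it (0.092 to 0.93). Within the family, the V to D means of IGHV8-8 were 2.56 and 3.25 (difference -0.69, -1.24 to -0.14), whereas those of IGHV8-12 were 2.88 and 2.92 (difference -0.037, -0.69 to 0.61). The D to J differences were -1.32 and -1.46 for the 2 genes, and the gap between the genes was not tested.

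Joints without any inserted nucleotide were more frequent among IGHV8 clonotypes of the iB-μMT mouse. They made up 37 of 251 (14.7%, 10.9% to 19.7%) and 9 of 269 (3.35%, 1.77% to 6.24%) in the B6 mouse (Fisher's exact test, adjusted p = 1.30e-05; 9 of 13 families called, 69.2%). The same shares were 8.54% and 2.76% among the other IgH clonotypes and 8.30% and 2.99% in IGHV1. By its share in the iB-μMT mouse, IGHV8 ranked 3rd of the 13 families, so a high share was not particular to it. IGHV7 (15.7% and 1.52%), IGHV14 (14.7% and 1.43%) and IGHV6 (14.4% and 3.57%) were at the same level. The highest family was IGHV15 (19.2% and 31.2%) and the lowest IGHV5 (6.01% and 1.34%). IGHV15 had only 5 of 26 and 5 of 16 such joints (Fisher's exact test, adjusted p = 0.504). By gene, they were 19 of 133 and 6 of 136 for IGHV8-8, 15 of 109 and 2 of 109 for IGHV8-12, and 3 of 7 and 0 of 8 for IGHV8-2. The following joints without insertions had the most reads, 444 and 427 in iB cells and 526 and 413 in the B6 mouse. They are shown because every base lies within the reported V, D or J ends, so no capitals appear. Bases within those ends were not checked against reference gene sequences, so added bases there would be neither marked nor counted.
iB-μMT, IGHV8-8, IGHD2-3, IGHJ4: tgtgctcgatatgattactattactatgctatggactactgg
iB-μMT, IGHV8-8, IGHD1-1, IGHJ4: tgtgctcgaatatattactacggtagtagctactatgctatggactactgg
B6, IGHV8-12, IGHD2-4, IGHJ1: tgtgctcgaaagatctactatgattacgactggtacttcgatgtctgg
B6, IGHV8-8, IGHD5-7, IGHJ2: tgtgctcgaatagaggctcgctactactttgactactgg

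Joints of the rare genes are shown for comparison. The IGHV8-2 clonotype with the most reads in the iB-μMT mouse (229 reads) had no insertion and had lost 8 V nucleotides, while that of the B6 mouse (472 reads) kept its whole V end and gained 9 nucleotides.
iB-μMT, IGHV8-2, IGHD2-3, IGHJ2: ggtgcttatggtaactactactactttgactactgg
B6, IGHV8-2, IGHD2-3, IGHJ4: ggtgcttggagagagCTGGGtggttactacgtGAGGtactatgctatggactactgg
Over its clonotypes with a D hit, IGHV8-2 had a mean of 1.43 inserted nucleotides (SD 1.62, n = 7) in iB cells, against 5.38 (SD 3.81, n = 8) in the B6 mouse. The 2 clonotypes with a D hit of IGHV8-5 in the iB-μMT mouse had 3 and 10 inserted nucleotides, and the 14 of the B6 mouse had a mean of 3.86 (SD 2.51). Its most abundant clonotypes had 246 and 445 reads, and the one from the B6 mouse is among those with a low V score.
iB-μMT, IGHV8-5, IGHD1-1, IGHJ2: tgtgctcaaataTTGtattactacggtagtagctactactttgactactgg
B6, IGHV8-5, IGHD5-7, IGHJ2: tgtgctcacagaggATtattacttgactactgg

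**Figure D4:**
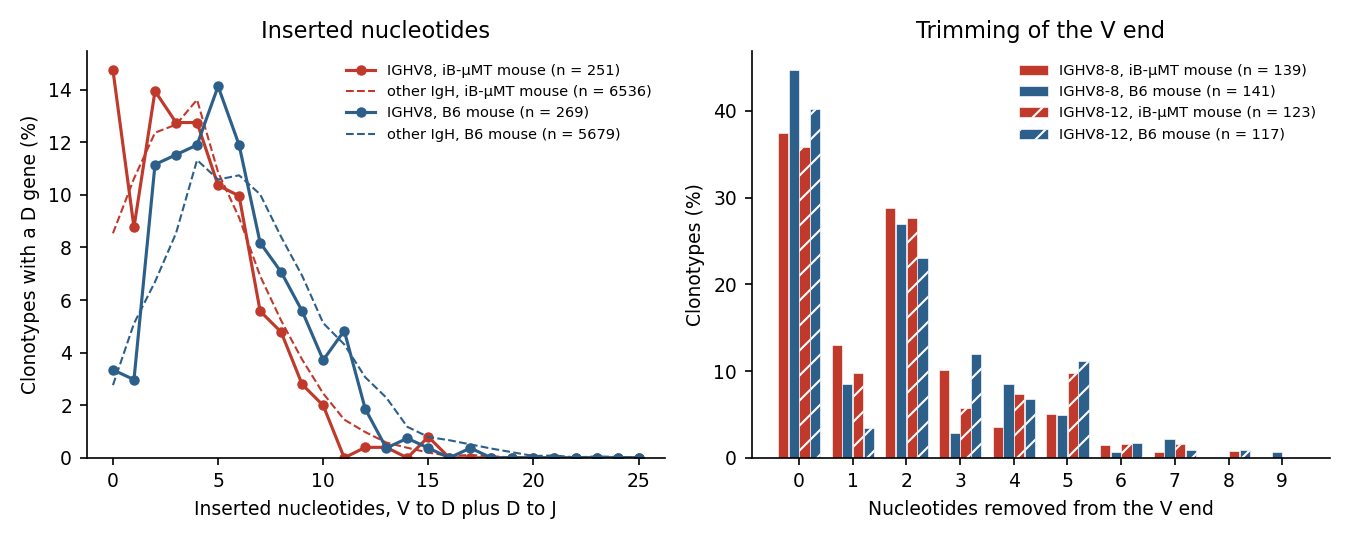
Left, inserted nucleotides per joint (horizontal axis, drawn to 25) against the share of clonotypes with a D hit (%), for IGHV8 (solid lines) and other IgH clonotypes (dashed lines) of the iB-μMT mouse (red) and the B6 mouse (blue); at 0 the IGHV8 clonotypes reach 14.7% and 3.35%. Right, nucleotides removed from the V end (horizontal axis) against the share of clonotypes (%) for IGHV8-8 (plain bars) and IGHV8-12 (hatched bars), with peaks at 0 and 2 in both mice.

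IGHV8 clonotypes kept a longer V-derived start than the other IgH clonotypes in both libraries, although more of their V ends were trimmed. The V gene contributed a mean of 11.3 and 11.2 nucleotides to CDR3 in IGHV8 clonotypes with a D hit, against 8.85 and 8.64 in the others, in the iB-μMT and B6 mouse. More nucleotides were removed from the V end of IGHV8, with means of 1.71 and 1.82 against 0.55 and 0.64. The V end was complete in 36.6% and 41.1% of the IGHV8 clonotypes and in 74.6% and 71.7% of the others. Removal of exactly 2 nucleotides was found in 27.5% (22.5% to 33.1%) and 25.6% (20.9% to 31.0%) of the IGHV8 clonotypes, and in 5.82% and 5.70% of the others. The shares were 28.8% and 27.0% for IGHV8-8 and 27.6% and 23.1% for IGHV8-12. Such a cut leaves tgtgctcgaat of IGHV8-8, as in the second of the abundant iB-μMT clonotypes above. Between the mice, the mean number removed differed by -0.11 nucleotides, with an interval of -0.44 to 0.21.

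CDR3 of IGHV8 clonotypes was longer than that of other IgH clonotypes in both mice, by 1.01 amino acids (0.74 to 1.29) for iB cells and 1.07 (0.78 to 1.36) for B6. Counted from the V-encoded first residue to the tryptophan of the J segment, its mean was 14.6 amino acids (SD 2.28, n = 273) in the iB-μMT mouse, with a range of 7 to 21, against 15.0 (SD 2.40, n = 285) in the B6 mouse, with a range of 8 to 23. The difference between the mice was -0.41 amino acids (-0.80 to -0.020), close to the -0.35 of the other clonotypes. IGHV8-8 had means of 14.5 and 15.4 (difference -0.86, -1.37 to -0.35), while IGHV8-12 had means of 14.7 and 14.8 (difference -0.089, -0.67 to 0.49). The D segments contributed 10.8 and 10.9 nucleotides to the IGHV8 joints and the J segments 18.2 and 17.8.

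For IGHD4-1, IGHD1-1, IGHD2-4 and the rarer IGHD3-2, the interval of the difference between the mice left out 0 in IGHV8 clonotypes. IGHD4-1 (also DQ52), the D gene nearest to the J segments, was found in 57 IGHV8 clonotypes of the iB-μMT mouse (20.9%, 16.5% to 26.1%), but in 20 of the B6 mouse (7.02%, 4.59% to 10.6%). The difference was 13.9 percentage points (8.19 to 19.6), and the shares among other IgH clonotypes were 16.2% and 8.64%. It was found for both frequent members, in 22.3% and 6.38% of the IGHV8-8 clonotypes and 20.3% and 5.98% of the IGHV8-12 clonotypes. IGHD1-1, the commonest D gene, was lower in the iB-μMT mouse, at 26.7% against 35.8% (difference -9.05 points, -16.6 to -1.35), beside 19.1% and 29.7% in the others. For IGHV8-8 its shares were 22.3% and 41.1% (difference -18.8 points, -29.1 to -7.95), whereas for IGHV8-12 they were 31.7% and 34.2% (difference -2.48 points, -14.2 to 9.30).

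IGHD2-4 was found in 9.52% and 15.4% of the IGHV8 clonotypes (difference -5.91 points, -11.4 to -0.40), beside 12.1% and 12.8% in the others. Its shares were 6.50% and 17.1% for IGHV8-12 (difference -10.6 points, -19.0 to -2.42). For IGHV8-8 they were 12.9% and 14.2% (difference -1.23 points, -9.37 to 6.93). IGHD3-2, named after its values were seen, was found in 3 and 13 of the IGHV8 clonotypes (difference -3.46 points, -6.63 to -0.66). In the others it was at 3.24% and 4.20%. The differences of IGHD2-3 (15.0% and 11.6%) and IGHD2-8 (6.23% and 5.61%) had intervals that included 0. No D hit was found for 8.06% and 5.61% of the IGHV8 clonotypes and for 13.1% and 12.6% of the others. Among the J genes, IGHJ2 was higher in the iB-μMT mouse (39.6% against 28.1%; difference 11.5 points, 3.64 to 19.2) and IGHJ3 was lower (12.8% against 21.4%; difference -8.58 points, -14.8 to -2.32). In the other IgH clonotypes, IGHJ2 was at 33.1% and 33.0% and IGHJ3 at 23.2% and 23.8%. By member, the IGHJ2 difference was 12.6 points (1.49 to 23.4) for IGHV8-8 and 6.71 points (-5.12 to 18.2) for IGHV8-12. The IGHJ3 differences of IGHV8-8 (-7.62 points, -16.3 to 1.19) and IGHV8-12 (-6.65 points, -16.1 to 2.75) had intervals that included 0. The differences of IGHJ1 (40 and 57 clonotypes) and IGHJ4 (33.0% and 30.5%) had intervals that included 0. No test was made of these shares, and they are a description of 2 libraries.

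**Figure D5:**
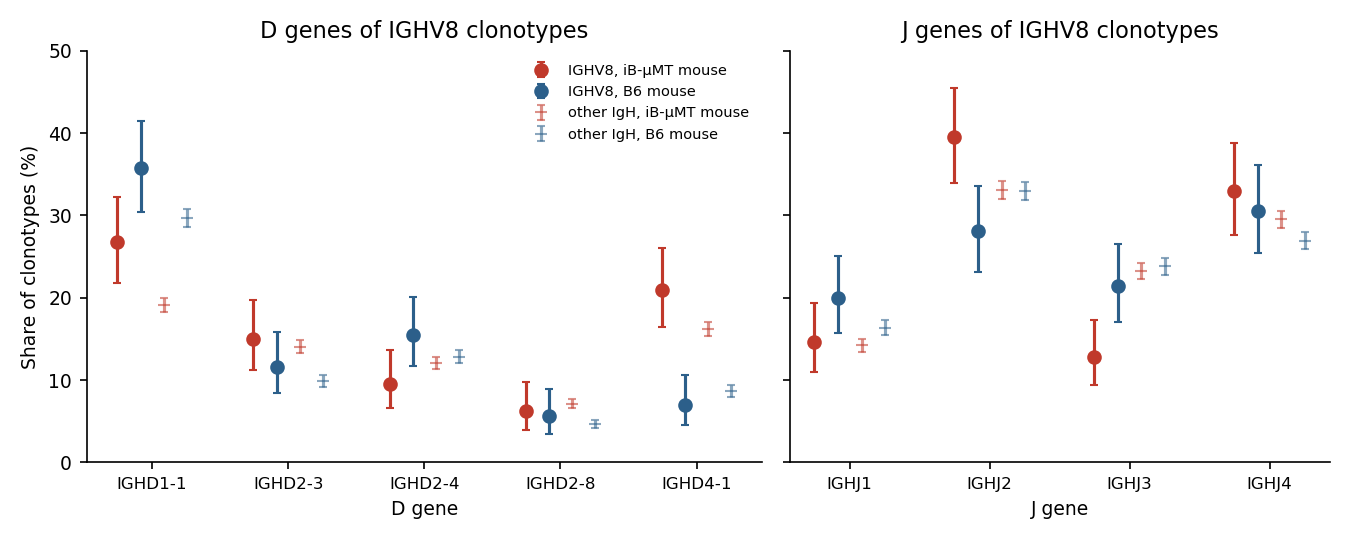
Share of clonotypes (%, vertical axis) with each D gene (left; those in at least 5% of IGHV8 clonotypes of either library) and each J gene (right), for IGHV8 clonotypes (filled circles) and other IgH clonotypes (pale bars) of the iB-μMT mouse (red) and the B6 mouse (blue). Lines are 95% Wilson intervals: IGHD4-1 (20.9% and 7.02%) is the D gene drawn whose IGHV8 intervals do not overlap.

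The members were spread over many clonotypes and were nearly all unswitched. The sort required surface IgM and high surface IgD. Few switched genes were thus set by the sort, and a lack of IGHD hits does not show cells without IgD. The median number of reads per IGHV8 clonotype was 149 in iB cells (range 1 to 523) and 240 in the B6 mouse (range 1 to 1063), against 95 and 181 for the other IgH clonotypes. The largest clonotype held 1.20% and 1.58% of the family's reads. IGHM, the constant gene of IgM and a marker of the sorted cells, was the C hit of 267 of 273 and 283 of 285 members, and the rest had no C hit. No member carried a switched constant gene, and none carried IGHD, the constant gene of IgD. Among the other IgH clonotypes, IGHM was the C hit of 98.1% (iB-μMT) and 98.5% (B6), and none had IGHD either. Switched genes were rare there too, with IGHG1 in 3 and 4 clonotypes and IGHG2C in 3 and 0. The near absence of switched genes was therefore not particular to IGHV8. A stop codon in CDR3 was found in 2 iB-μMT members (0.733%, 0.201% to 2.63%) and 11 B6 members (3.86%, 2.17% to 6.78%), beside 0.678% and 2.14% of the other clonotypes.

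The 2 mice had 34 IgH clonotypes in common, and 2 of them were members, both of IGHV8-12. Their sequences are shown because the same joint was present in both libraries. The first had 278 iB-μMT reads and 1 B6 read, and the second 103 and 409.
IGHV8-12, IGHD4-1, IGHJ3: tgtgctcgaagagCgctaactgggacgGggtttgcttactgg
IGHV8-12, IGHD1-1, IGHJ1: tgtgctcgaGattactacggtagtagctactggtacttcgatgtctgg
They held 2 and 1 inserted nucleotides. The members in common were 0.733% and 0.702% of the IGHV8 clonotypes, beside 0.436% and 0.501% for all IgH clonotypes, iB-μMT before B6.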

How the data were processed

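The authors sorted the cells, amplified the heavy chain cDNA from its 5′ end with template switching, sequenced it (Illumina MiSeq) and called clonotypes with MiXCR. The labels name mm10 and bcl2fastq. For each clonotype the deposited table gives a read count, the fraction it makes of that library, and a quality score (the minimum over CDR3), with the CDR3 sequence, V, D, J and C hits with alignment scores, and segment ends. The fractions were not used, and the lowest quality score was 21 in both libraries. The 4 light chain tables of the 6 libraries held 0 IGHV hits.

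The members, gene lists and tests were chosen with earlier results of these data known. Each clonotype counted once, since no molecular identifiers are described. All were in frame. Inserted nucleotides are those outside the reported V, D and J ends, over clonotypes with a D hit. Bases within these ends were not checked against reference gene sequences. Families and IGHV genes (at least 20 clonotypes in both libraries together) were tested with two-sided Fisher's exact tests (SciPy 1.17.1) with Benjamini-Hochberg adjustment over all families or genes at 0.05. Ratios and shares have 95% intervals (Wilson for shares, Newcombe for differences in percentage points). Intervals of means are over clonotypes, which are not replicates. Gene order and coordinates come from RefSeq on GRCm38.p6, the same assembly as mm10; 105 of 105 IGHV names matched. Alternatives were minimum reads, equal read numbers, weighting by reads, merging of near-identical clonotypes, V assignment, productivity, clonotypes in common and the gene and D minimums. Scripts were tested on simulated data.

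The genes named are all IGHV8 genes found, the nearest IGHV1 genes with a clonotype, the J genes, D genes at 5% or more of the members, and the 3 genes nearest in ratio. Of the sequences, the 3 members with the most reads per library and those in common were set by rule; the others, the low V scores and the settings without IGHV8-5 or without low scores were chosen after the values were seen.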

Additional observations from a re-analysis of the deposited data

How the results depend on the processing

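Of 85 recomputed values for 16 results, 81 were unchanged and 0 reversed. Some alternatives could change little by construction, since no member had tied best V hits and 2 members were in common to the libraries. Unchanged means the same direction and side of the threshold for a test, a count within 1.5 times, or, with no test, a value inside the 95% interval. The family's log2 ratio of -0.26 was -0.29 with near-identical clonotypes merged (exact adjusted p = 0.0382, past the threshold) and -0.015 when weighted by reads; its exact adjusted p over all alternatives ranged from 0.0382 to 0.237. The number of IGHV8 genes called rose from 0 to 1 (IGHV8-5) with a minimum of 10 clonotypes and with every gene tested. The log2 difference between IGHV8 and IGHV1, 0.73, ranged from 0.70 to 0.80 (exact adjusted p from 4.79e-09 to 3.43e-07), and between 6 and 10 of the 14 family pairs were called. The difference in inserted nucleotides ranged from -1.74 to -1.52, that in joints without insertions from 10.5 to 12.3 percentage points (exact adjusted p from 1.23e-05 to 0.000714), and that in CDR3 length from -0.51 to -0.36 amino acids. The causes of these changes were not tested. Leaving out clonotypes with a V score under 1200 gave a log2 ratio of -0.24 for the family (exact adjusted p = 0.113). No paired analysis was possible because each group had 1 library, and for the same reason no replicate could be left out. Depth limits the rare members: 3 clonotypes correspond to 0.0385% and 0.0442% of the 2 libraries. The engineered donor line with its cassette, recipient strain, irradiation, transplantation, doxycycline, age and library cannot be told apart in this design.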
